A study of Mus musculus with 8 samples.

Results

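The comparison described here is that of the MET KO + EGFRi liver at day 2 with the MET KO + EGFRi liver at day 0 of a response to TCPOBOP. It rests on 2 of the 8 Affymetrix mouse arrays of the study, 1 for each day, chosen by their labels, and on all probe sets of those arrays. The arrays hold 45037 probe sets other than controls, from which 18193 genes could be read and 12112 passed a filter on low signal. All mice carried a floxed Met gene and a Cre that tamoxifen switches on, and the labels give their background as Metff/ff:ERCre+/+. The MET KO + EGFRi mice received 5 daily injections of tamoxifen (100 µl at 10 mg/ml) to delete Met systemically, not in 1 cell type alone. Canertinib, which inhibits the EGFR kinase, was mixed into their food from 1 day before TCPOBOP, for an intended dose of 80 mg/kg/day. Control mice were littermates injected with corn oil, with neither tamoxifen nor canertinib. Both arms received a single oral dose of TCPOBOP at 3 mg/kg, at least 5 days after the last injection, and livers were taken at days 0, 1, 2 and 5. RNA of several livers was pooled for each array. The number, age and sex of the mice are not given in the labels, nor whether the day 0 mice had been given TCPOBOP. Day 2 and day 0 of the MET KO + EGFRi arm also differ in the days spent on canertinib and in the days since tamoxifen, and these cannot be told apart from TCPOBOP.

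TCPOBOP is a ligand of the mouse constitutive androstane receptor (CAR, encoded by Nr1i3), a nuclear receptor of hepatocytes. Activated CAR turns on cytochromes P450, conjugating enzymes and transporters that clear foreign compounds, and in mice it also drives hepatocytes to divide without prior injury. MET and EGFR are the receptor tyrosine kinases for hepatocyte growth factor and for the epidermal growth factor family, and both carry mitogenic signals in hepatocytes. The comparison asks how the transcriptome of livers with both receptors targeted differed 2 days into the response.

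Each of the 8 groups had 1 array, so no spread between animals was measured, and single-arm differences are given as values with no p-value. A signal is the deposited intensity of a probe set, on a linear scale. A fold is the ratio of 2 signals, and a log2 change is the day 2 minus the day 0 value of log2(signal + 71), which understates the change of weak genes. The median signal was 235 at day 2 and 239 at day 0 in MET KO + EGFRi, and the ratio of 3' to 5' actin probe sets was 1.86 at day 2 and 1.77 at day 0, within the 1.57 to 2.36 of the 8 arrays. The liver label was borne out by the hepatocyte markers, which were among the brightest genes, with albumin (Alb) at 68204 at day 2 and 38805 at day 0. The deletion of Met was not visible in its probe sets. Met had a signal of 2034 at day 2 and 1502 at day 0 in MET KO + EGFRi, against 1336 at day 2 and 1444 at day 0 in Control. A second probe set read 650.0 and 639.5 in MET KO + EGFRi, against 359 and 786 in Control, at day 2 and day 0 in each arm. Where these probe sets lie relative to the deleted part of Met is not given in the sources used here, so they neither check nor contradict the labels.

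Between the 2 MET KO + EGFRi arrays, 258 of 12112 genes were at least 2-fold higher at day 2 (2.13%) and 253 were at least 2-fold lower (2.09%). These shares are the background for every count of list members below. The median change of all genes was 0.014 on the log2 scale, the median absolute change was 0.24, and 85.1% of genes lay within 1.5-fold. At least 4-fold, 39 genes were higher and 28 lower, and at least 8-fold, 7 were higher and 2 lower. The higher genes included 11 phase I and 11 phase II genes known to be induced by CAR. The lower genes included 9 interferon-stimulated genes and 5 of cholesterol synthesis.

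**Figure D1:**
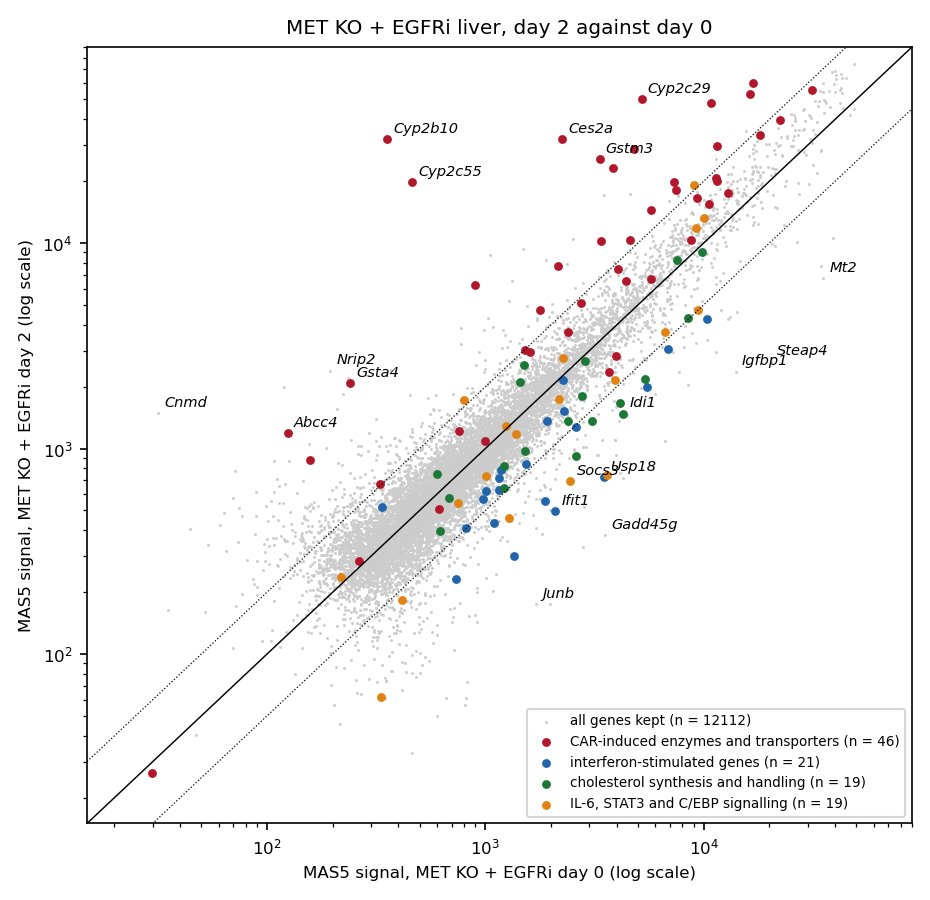
Each point is a gene, placed by its signal on the day 0 array (x axis) and on the day 2 array (y axis) of MET KO + EGFRi liver, both on log scales; the solid line marks equal signals and the dotted lines a 2-fold difference. CAR-induced genes lie on or above the solid line with few exceptions and reach 32027 at day 2 against 356 at day 0 for Cyp2b10, whereas 20 of 21 interferon-stimulated genes lie below it.

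CAR-induced phase I enzymes, which oxidise or hydrolyse foreign compounds, were higher at day 2. Of 20 measured members of a list of 30, 18 were higher and 11 were at least 2-fold higher, against 2.13% of all genes, with none 2-fold lower. The list's median log2 change was 1.32, against 0.014 for all genes. In Control the same 20 genes had a median of 1.06, and 11 were at least 2-fold higher, against 2.58% of all genes in that arm. Cyp2b10, the P450 by which CAR activity is usually read, stood at 32027 at day 2 and 356 at day 0 in MET KO + EGFRi, an 89.9-fold difference, against 33939 at day 2 and 444 at day 0 in Control. Both arms thus stood at nearly the same level on both days. Cyp2c55, a P450 of the same induced group, had 19763 at day 2 and 462 at day 0 in MET KO + EGFRi (42.7-fold), and Ces2a, a carboxylesterase, had 32000 and 2241 (14.3-fold). Cyp2c29, Cyp2c54 and Cyp1a2 differed by 9.62-, 5.98- and 6.07-fold in MET KO + EGFRi. Their log2 changes of 3.25, 2.56 and 2.58 in MET KO + EGFRi stood beside 1.11, 1.58 and 1.35 in Control. The arms differed less at day 2 than at day 0: Cyp2c29 had 49985 at day 2 and 5195 at day 0 in MET KO + EGFRi, against 37765 at day 2 and 17518 at day 0 in Control. In 15 of the 20 genes the MET KO + EGFRi day 0 array had the lowest signal of all 8 arrays, compared with 13.4% of all genes. That share is not a like reference. With 18 of the 20 higher at day 2 in MET KO + EGFRi and 17 in Control, the lowest signal tends to fall on a day 0 array.

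The conjugating enzymes and transporters downstream of CAR followed the same course. Of 26 measured members, 24 were higher at day 2 and 11 at least 2-fold higher, none 2-fold lower, and the median log2 change was 0.88 in MET KO + EGFRi and 1.07 in Control. All 10 measured glutathione transferases were higher in MET KO + EGFRi, 6 of them at least 2-fold, and the same counts held in Control. Of the other 16 members, 14 were higher and 5 at least 2-fold in MET KO + EGFRi, and 15 and 9 in Control. Gstm3 had 25600 at day 2 and 3335 at day 0 in MET KO + EGFRi, and Gstt3 had 6240 and 893. Gsta4 had 2077 at day 2 and 241 at day 0 in MET KO + EGFRi, against 7790 at day 2 and 2009 at day 0 in Control, so that its signal at day 2 in MET KO + EGFRi was close to that of Control at day 0. Gsta2 had 875 at day 2 and 158 at day 0 in MET KO + EGFRi, against 5050 at day 2 and 2349 at day 0 in Control, and thus stayed below both Control signals. Abcc4, a pump that exports conjugates from hepatocytes, had 1191 at day 2 and 124 at day 0 in MET KO + EGFRi, against 1282 at day 2 and 26.1 at day 0 in Control. Abcc3, a second such pump, had 7727 and 2143 in MET KO + EGFRi. The receptor gene Nr1i3 itself was lower by about the same amount in both arms, with 790.0 at day 2 and 1409 at day 0 in MET KO + EGFRi and 1784 at day 2 and 3141 at day 0 in Control.

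A test against a spread was possible for the change from day 0 to day 2 averaged over both arms, since a limma fit of arm and day to the 8 arrays leaves 3 residual degrees of freedom. Of 12112 genes, 7 were called at an adjusted p under 0.05, all higher at day 2 (0.0578%), and 526 higher and 407 lower genes had an unadjusted p under 0.05. Cyp2b10 rose by 6.14 on the log2 scale (standard error 0.18, adjusted p = 9.15e-06) and Cyp2c55 by 4.99 (standard error 0.24, adjusted p = 1.95e-04). Ces2a, Gstm3 and Abcc4 rose by 3.31, 2.71 and 3.25, with limma adjusted p of 0.00576, 0.00576 and 0.0242. The sulfotransferase Sult1c2 rose by 2.31 (limma adjusted p = 0.039), and the unnamed gene model 4931406C07Rik by 2.19 (limma adjusted p = 0.0401). The change was positive in both arms for all 7 genes. The probe sets read for Cyp2b10 and Gstm3 can also bind related RNAs. When each array was left out in turn, Cyp2b10 and Cyp2c55 were called in 8 of 8 fits, and the others in 2 to 5 of 8. Without the Control day 2, the MET KO + EGFRi day 0 or the MET KO + EGFRi day 2 array, 2 genes were called.

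Some cell cycle genes were 2-fold higher at day 2, a larger share than among all genes, but their number fell with a larger pseudocount. The mitotic list had a smaller median than in Control. Of 34 measured genes of G2/M and mitosis in MET KO + EGFRi, 5 passed 2-fold upward, against 2.13% of all genes, and 1 downward, and the median log2 change was 0.17. In Control 15 of the same genes passed it upward, against 2.58% of all genes, and 1 downward, with a median of 0.75. Of 26 DNA replication genes, 2 were 2-fold higher in MET KO + EGFRi and 4 in Control, with medians of 0.15 and 0.48. Cdk1, the kinase that starts mitosis, had 88.5, 348, 383 and 449.9 in MET KO + EGFRi at days 0, 1, 2 and 5, against 95.0, 784, 1421 and 317 in Control. Its level at day 2 was thus above day 0 in both arms and highest in Control. Ccnb2, a B-type cyclin that partners this kinase, had 35.1, 174, 163 and 422 in MET KO + EGFRi and 40.7, 424, 2030.4 and 269 in Control on the same days. Mad2l1, a spindle checkpoint protein, was lower at day 2 in MET KO + EGFRi and higher in Control. It had 202, 376, 56.4 and 432 at days 0, 1, 2 and 5 in MET KO + EGFRi. In Control it had 158, 530.5, 1963 and 188. Its day 2 signal in MET KO + EGFRi was below the pseudocount of 71 and below those of days 1 and 5. With the median signal as pseudocount its log2 change in MET KO + EGFRi was -0.58. Rrm2, a subunit of ribonucleotide reductase, had 899.5 at day 2 and 603 at day 0 in MET KO + EGFRi, against 3857 and 551 in Control. The replicative helicase subunit Mcm2 had 304 at day 2 and 184 at day 0 in MET KO + EGFRi, against 1094 and 195 in Control.

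Other proliferation genes differed in how their log2 changes compared between the arms. Those of Top2a, Spc24 and Foxm1 were close, that of Ccnd1 was larger in MET KO + EGFRi (1.48 against 0.48 in Control), and that of Myc was smaller (1.02 against 2.31 in Control). Top2a, which untangles replicated DNA, was 3.54-fold higher at day 2 in MET KO + EGFRi, with log2 changes of 1.37 in MET KO + EGFRi and 1.40 in Control. Spc24, a kinetochore subunit, had 424 at day 2 and 60.8 at day 0 in MET KO + EGFRi, against 1279 and 319 in Control. Mki67, a marker of cycling cells, had 289 at day 2 and 115 at day 0 in MET KO + EGFRi, against 636 and 192 in Control. Foxm1, a transcription factor of mitotic genes, had 922 and 958 in MET KO + EGFRi, against 1199.8 and 1122 in Control. Ccnd1, the D-type cyclin that opens the cell cycle, had 1232, 3172, 3571 and 4264 at days 0, 1, 2 and 5 in MET KO + EGFRi, against 4553, 6318, 6381 and 5647 in Control. All 4 MET KO + EGFRi values lay below all 4 Control values. Its 2 other measured probe sets were also more than 2-fold higher at day 2 in MET KO + EGFRi, by 1.10 and 1.15 on the log2 scale. Myc, a growth-promoting transcription factor, had 395 at day 2 and 159 at day 0 in MET KO + EGFRi, against 459.9 and 36.4 in Control. Several of these signals are near the pseudocount, and with the larger pseudocount of 239 the log2 changes of Cdk1, Ccnb2, Top2a and Myc in MET KO + EGFRi were 0.93, 0.55, 0.88 and 0.67, each below 2-fold.

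Genes that interferons induce were lower at day 2 almost without exception. Of 21 measured members of a list of 28, 20 were lower and 9 at least 2-fold lower, against 2.09% of all genes, and none was 2-fold higher. The median log2 change was -0.88 in MET KO + EGFRi and -0.18 in Control, where no member was 2-fold lower against 2.73% of all genes. The arms differed more at day 0 than at day 2. The summed signals of the list at day 0 were 50656 in MET KO + EGFRi and 24865 in Control. At day 2 the sums were 23518 and 21355. In 18 of the 21 genes the MET KO + EGFRi day 0 array had the highest signal of all 8 arrays, against 12.5% of all genes. In 17 the day 2 signal lay within the range of the 4 Control arrays. That 12.5% is not a like reference. With 20 of the 21 lower at day 2 in MET KO + EGFRi and 16 in Control, the highest signal tends to fall on a day 0 array. Usp18, which removes the ubiquitin-like modifier of this response and restrains its receptor, had 3498, 1008, 727 and 913 at days 0, 1, 2 and 5 in MET KO + EGFRi, against 1055, 812, 1193 and 1456 in Control. Ifit1, which binds foreign RNA, had 2086, 344, 498 and 502 in MET KO + EGFRi, against 768, 503, 708 and 937 in Control. Both were thus low from day 1 on in MET KO + EGFRi. Gbp3 and Igtp, GTPases of the defence against intracellular microbes, were 4.47- and 2.77-fold lower at day 2 in MET KO + EGFRi, Oasl2 was 3.19-fold lower, and Xaf1 3.38-fold lower on the probe set read. Rtp4, an interferon-induced chaperone outside the list, had 715 at day 2 and 4254 at day 0 in MET KO + EGFRi, against 1240.2 and 834 in Control.

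The promoters of these genes were read from RefSeq windows (GRCm38.p6) of 250 bases before to 50 after the gene start. The interferon-stimulated response element, the site of the transcription factor complex that type I interferon activates, was searched on both strands as a GAAA block, 2 bases of any kind and a further GAAA block. It was present in 9 of the 18 list members with a window, in 4 of the 7 of these that were at least 2-fold lower, in 3.62% of 9767 measured genes with a window and in 3.44% of all 32851 windows. A match is a description of the letters, not evidence of a bound site. The 4 genes are shown because they joined a matched motif to a lower signal at day 2. Ifit3, a partner of Ifit1 chosen after its values were seen, had 435 at day 2 and 1099 at day 0 in MET KO + EGFRi. Each stretch is on the plus strand, 5′ to 3′, with the motif or its reverse complement in capitals; the 2 matches of Gbp3 overlap. The Gbp3 stretch is chr3:142559947-142560066 (bases -97 to 23 from the gene start), that of Ifit1 is chr19:34640739-34640858 (-150 to -31), that of Igtp is chr11:58199467-58199586 (-89 to 31) and that of Ifit3 is chr19:34583335-34583454 (-194 to -75).
Gbp3: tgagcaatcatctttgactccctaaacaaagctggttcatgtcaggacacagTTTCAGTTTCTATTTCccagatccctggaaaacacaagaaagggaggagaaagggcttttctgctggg
Ifit1: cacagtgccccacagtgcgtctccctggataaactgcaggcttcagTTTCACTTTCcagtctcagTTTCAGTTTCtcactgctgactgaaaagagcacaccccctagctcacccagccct
Igtp: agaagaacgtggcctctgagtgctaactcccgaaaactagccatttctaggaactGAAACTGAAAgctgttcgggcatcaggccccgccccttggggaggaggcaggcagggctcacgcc
Ifit3: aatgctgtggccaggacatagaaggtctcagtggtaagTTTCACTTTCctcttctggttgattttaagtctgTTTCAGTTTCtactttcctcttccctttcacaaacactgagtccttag

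Genes of interleukin-6 signalling, which acts through STAT3 and C/EBP factors in hepatocytes, gave mixed values, and 4 of them, the feedback inhibitors Socs3 and Socs1 with Bcl3 and Cebpd, were at least 2-fold lower at day 2. Of 19 members, 12 were lower, 4 of them at least 2-fold, and 2 were at least 2-fold higher, and the median log2 change was -0.42 in MET KO + EGFRi and 0.13 in Control. Socs3, an inhibitor that STAT3 induces, had 2454, 1194, 693 and 919 at days 0, 1, 2 and 5 in MET KO + EGFRi, against 322, 615, 640.1 and 582 in Control. The arms were closest at day 2. Its 2 other probe sets had log2 changes of -2.68 and -3.87 in MET KO + EGFRi. Bcl3, a nuclear partner of NF-kB, was 4.84-fold lower at day 2 in MET KO + EGFRi, Cebpd, a C/EBP factor of the acute phase, 2.78-fold, and Socs1, a related inhibitor, had 62.0 at day 2 and 332 at day 0. With the median signal as pseudocount the log2 change of Socs1 in MET KO + EGFRi was -0.92. The mean of the probe sets of Cebpd gave -0.68, so both fell short of 2-fold there. Lifr, a receptor of the same cytokine family, was 2.12-fold higher in MET KO + EGFRi. It was also higher in Control, with 5768 at day 2 and 3111 at day 0. Junb, an immediate early transcription factor listed with the ERK response genes, had 1711, 592, 175 and 299 in MET KO + EGFRi on days 0, 1, 2 and 5, against 264, 224, 165 and 394 in Control.

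The acute phase proteins, made by hepatocytes in response to such cytokines, split in 2 directions. Of 28 members, 14 were higher, 1 of them at least 2-fold, and 14 lower, 4 of them at least 2-fold, with a median log2 change of 0.016 in MET KO + EGFRi. In Control 1 passed 2-fold upward and 4 downward as well, with a median of -0.032. Steap4, a metalloreductase, had 20292, 16004, 2654 and 3689 at days 0, 1, 2 and 5 in MET KO + EGFRi, against 1680.2, 1588, 2222 and 916 in Control. Lcn2, an iron-scavenging lipocalin, had 34565, 36042, 7771 and 5470.1 in MET KO + EGFRi, against 622, 743, 525 and 911 in Control. Both were thus high on days 0 and 1 and much lower on days 2 and 5 in MET KO + EGFRi. Saa3, a serum amyloid A made also by macrophages, and the protease inhibitor Serpina3n were 2.85- and 2.65-fold lower at day 2 in MET KO + EGFRi, against 2.03- and 2.54-fold lower in Control. Saa1, a main serum amyloid A of the acute phase, did not share this drop at day 2. It had 42623, 49441, 56587 and 13192 in MET KO + EGFRi on the 4 days, against 1516, 2612, 1046 and 2041 in Control, and its second probe set read 63664 at day 2 and 44486 at day 0 in MET KO + EGFRi. The sums of monocyte and neutrophil markers, which include Lcn2, were 18015 at day 2 and 44945 at day 0 in MET KO + EGFRi, and 5750.4 and 5797 in Control; without Lcn2, the largest change among its measured markers was 0.43 (Elane), and the part of these cells in the result was not tested.

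**Figure D2:**
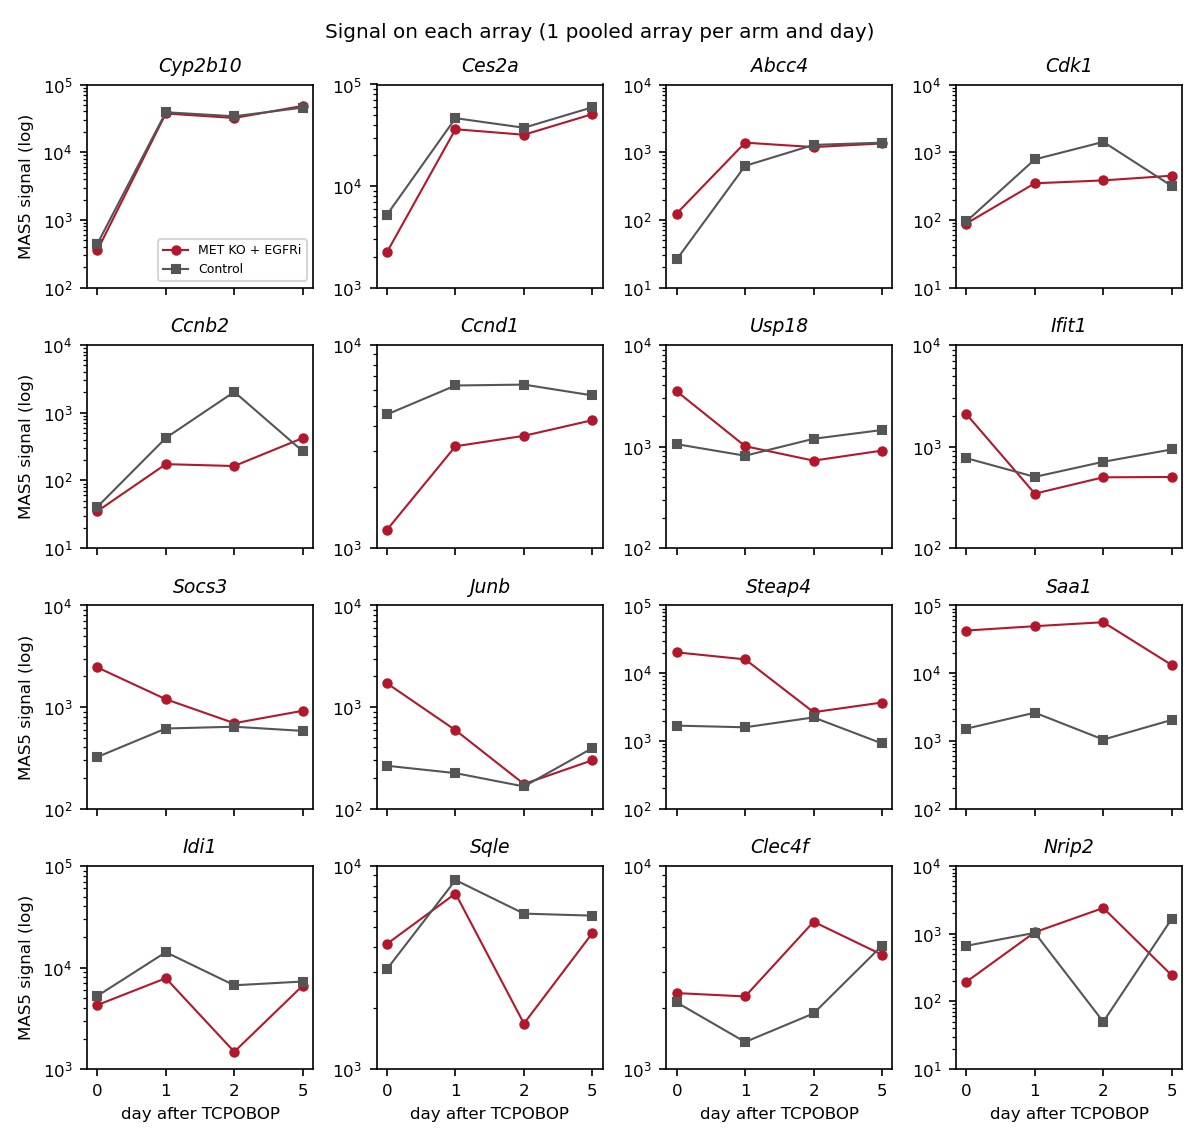
Signal of 16 genes (log scale) on the arrays of days 0, 1, 2 and 5 (evenly spaced on the x axis) in MET KO + EGFRi (red circles) and Control (grey squares), 1 pooled array per point. Cyp2b10 stands at like levels in both arms, Ces2a is lower in MET KO + EGFRi at day 0 (2241 against 5230.1 in Control), Usp18, Ifit1, Socs3, Junb and Steap4 are high in MET KO + EGFRi at day 0, and Idi1 and Sqle are at their lowest in MET KO + EGFRi at day 2.

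The metallothioneins and some genes induced by glucocorticoids were lower at day 2 in MET KO + EGFRi. Of 20 measured metallothionein and glucocorticoid targets, 5 were at least 2-fold lower and none 2-fold higher, with a median log2 change of -0.26 in MET KO + EGFRi and -0.40 in Control. The metal-binding proteins Mt2 and Mt1 had 6762 and 10537 at day 2, against 35172 and 39104 at day 0 in MET KO + EGFRi. In Control, Mt2 had 2095 at day 2 and 2680 at day 0, and Mt1 had 2328 and 4632. Igfbp1, a binding protein of insulin-like growth factors that rises in fasting and injury, had 14038, 2327, 2367 and 836 at days 0, 1, 2 and 5 in MET KO + EGFRi, against 839, 345, 467 and 726 in Control. Slc39a14, a zinc and iron importer, was 3.07-fold lower at day 2 in MET KO + EGFRi on the probe set read, and the mean of its probe sets had a log2 change of -0.71. Igfbp2, a relative of Igfbp1 outside this list, went the other way, with 9384 at day 2 and 1494 at day 0 in MET KO + EGFRi, against 8852 and 9223 in Control.

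Several growth-arrest genes were also lower. Of 21 measured CDK inhibitors and p53 targets, 5 were at least 2-fold lower and 1 at least 2-fold higher at day 2 in MET KO + EGFRi, with medians of -0.14 in MET KO + EGFRi and 0.19 in Control. Gadd45g, a stress sensor, had 378 at day 2 and 3532 at day 0 in MET KO + EGFRi, against 88.0 and 165 in Control. Fas, a death receptor, was 4.70-fold lower, Btg2, an antiproliferative gene, 3.13-fold lower, and Trp53inp1 3.05-fold lower in MET KO + EGFRi. Cdkn1a, which encodes the CDK inhibitor p21, had 648 at day 2 and 1132 at day 0 in MET KO + EGFRi, against 743 and 684 in Control; the mean of its probe sets had a log2 change of -2.06. Gadd45b, a sister of Gadd45g, was higher in both arms, with 1091 at day 2 and 317 at day 0 in MET KO + EGFRi and 2255 at day 2 and 262 at day 0 in Control.

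Cholesterol synthesis was lower at day 2 in MET KO + EGFRi and not in Control. Of 19 measured genes, 15 were lower and 5 at least 2-fold lower, against 2.09% of all genes, with a median log2 change of -0.60 in MET KO + EGFRi and 0.33 in Control. In Control no member was 2-fold different. In 13 of the 19 the MET KO + EGFRi day 2 array held the lowest signal of all 8 arrays, against 10.1% of all genes, and 18 lay below the range of the 4 Control arrays, against 18.6%. At day 0, 13 of the 19 already lay below that range, against 22.4% of all genes. The shares of all genes at day 2 are not like references, since 15 of the 19 were lower at day 2 in this arm. Idi1, which makes the allylic building block of sterols, had 4272, 7850, 1480 and 6640.1 at days 0, 1, 2 and 5 in MET KO + EGFRi, against 5253, 14159, 6685 and 7278 in Control. Sqle, which epoxidises squalene, had 4135, 7316, 1676 and 4671 in MET KO + EGFRi, against 3110, 8521, 5825 and 5693 in Control. Both dipped on day 2 alone in MET KO + EGFRi, with higher values on day 1 before it and day 5 after it. Cyp51, which demethylates lanosterol, was 2.81-fold lower at day 2, Nsdhl 2.46-fold and Msmo1 2.27-fold lower, and Hmgcs1, which commits acetyl units to the pathway, had 4320.1 at day 2 and 8452 at day 0 in MET KO + EGFRi, against 14680 at day 2 and 8797 at day 0 in Control. The second probe set of Idi1 had a log2 change of -2.23, and the mean of the probe sets of Msmo1 one of -0.55. A core of the sterol regulatory element, searched as TCACNCCAC on both strands, was matched in the window of 1 of the 15 genes with one, Hmgcs1. It was matched in 1.54% of 9767 measured genes with a window and in 1.24% of all windows. A search for 1 fixed core in a short window can miss other forms of the element, so no match is not evidence of a missing site.

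Genes of other lipid pathways gave mixed values. Genes that make and store fatty acids had medians of 0.078 in MET KO + EGFRi and -0.41 in Control, and of 28 in MET KO + EGFRi 2 passed 2-fold upward and 1 downward. Scd1, the desaturase that makes oleate, had 9653 at day 2 and 21249 at day 0 in MET KO + EGFRi, against 36004 and 38296 in Control. Srebf1, the transcription factor of fatty acid synthesis, had 6823 at day 2 and 3304 at day 0 in MET KO + EGFRi, against 4070 and 7898 in Control, an opposite direction. Fads1, a desaturase of polyunsaturated fatty acids, was 2.22-fold higher in MET KO + EGFRi. Of 20 bile acid genes, Cyp7a1, the rate-limiting enzyme of bile acid synthesis, was 2.06-fold higher and Cyp7b1, of the alternative pathway, 2.44-fold lower in MET KO + EGFRi. In Control, Cyp7a1 had 3508 at day 2 and 5047 at day 0, and Cyp7b1 had 2276 and 1194, each in the opposite direction. Cyp7b1 had 2963 at day 2 and 7234 at day 0 in MET KO + EGFRi. In Control 4 of the 20 passed 2-fold upward and 1 downward. Acot3, a peroxisomal thioesterase, had 4928 at day 2 and 1548 at day 0 in MET KO + EGFRi, against 3024 and 6270 in Control.

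Markers of resident macrophages and endothelium were slightly higher at day 2 in MET KO + EGFRi. In bulk liver, fewer or more cells of a type and less or more RNA per cell cannot be told apart. Of 18 Kupffer cell and macrophage markers, all measured, 14 were higher at day 2, 2 of them at least 2-fold, with a median log2 change of 0.59 in MET KO + EGFRi and -0.35 in Control. Their summed signal was 63207 at day 2 and 43454 at day 0 in MET KO + EGFRi, and 29068 at day 2 and 35833 at day 0 in Control. All 18 lay above the range of the 4 Control arrays at day 2 in MET KO + EGFRi, against 19.2% of all genes. At day 0, 8 did so, against 21.4%. The day 2 share of all genes is not a like reference, since 14 of the 18 were higher at day 2 in this arm. Clec4f, a lectin typical of Kupffer cells, had 5312 at day 2 and 2367 at day 0 in MET KO + EGFRi, against 1880 and 2129 in Control. Adgre1, the F4/80 antigen, and Csf1r, the receptor of macrophage colony-stimulating factor, were 1.71- and 1.73-fold higher at day 2 in MET KO + EGFRi. The median of the list lay between 0.53 and 0.61 under the 8 other processing settings and the one used.

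Of 15 measured endothelial markers, 14 were higher at day 2 in MET KO + EGFRi, 2 of them at least 2-fold, and 1 was at least 2-fold lower, with medians of 0.50 in MET KO + EGFRi and -0.18 in Control, and summed signals of 20718 at day 2 and 15160.0 at day 0 in MET KO + EGFRi and 14607 and 16344 in Control. The sinusoidal scavenger receptors Stab1 and Stab2 were 1.98- and 1.93-fold higher. Lyve1, a hyaluronan receptor of sinusoidal and lymphatic endothelium, was the exception, with 1494, 2144, 484 and 370.0 at days 0, 1, 2 and 5 in MET KO + EGFRi, against 381, 272, 281 and 396 in Control. Secreted hepatocyte proteins were also higher, 20 of 21, with a median of 0.46 in MET KO + EGFRi and -0.025 in Control, and none 2-fold different. Albumin was 1.76-fold and apolipoprotein A1 (Apoa1) 1.71-fold higher. These genes are the brightest on the arrays, and after quantile normalization their median was 0.089, while those of the macrophage and endothelial markers were 0.53 and 0.51. Reference genes such as Actb and Eef1a1 were higher in both arms, with medians of 0.34 in MET KO + EGFRi and 0.41 in Control.

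**Figure D3:**
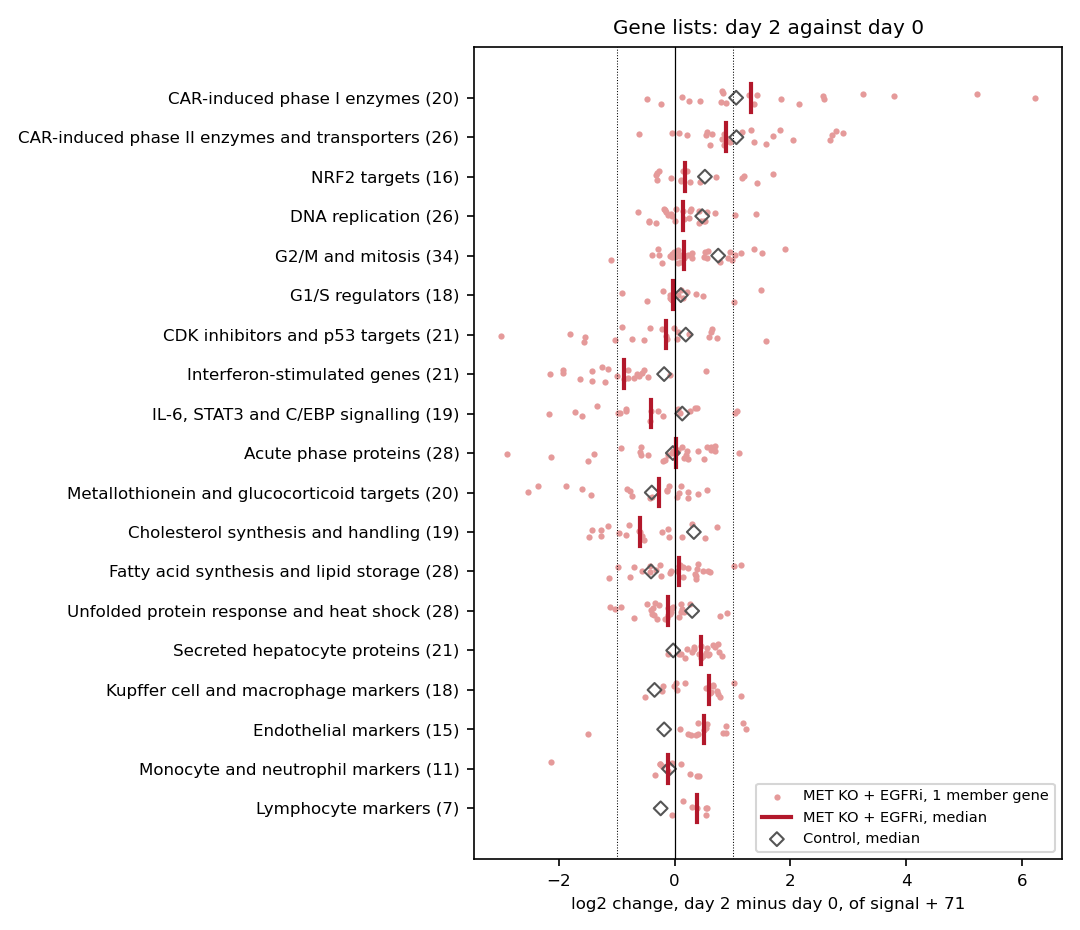
Log2 change from day 0 to day 2 of each measured member of 19 gene lists in MET KO + EGFRi (pale dots), with the list median in MET KO + EGFRi (red bar) and in Control (open diamond); the number of members is in brackets and dotted lines mark 2-fold. The medians of interferon-stimulated and cholesterol genes are -0.88 and -0.60 in MET KO + EGFRi, and Kupffer cell and endothelial medians are above 0 in MET KO + EGFRi and below 0 in Control.

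The receptors targeted in this arm and their ligands showed no 2-fold difference in 16 measured genes. Hgf, the ligand of MET, had 475 at day 2 and 318 at day 0 in MET KO + EGFRi, against 294 and 508 in Control. Egfr depended on the probe set. The brightest set had 3846 at day 2 and 4694 at day 0 in MET KO + EGFRi, a log2 change of -0.28, but 3 other sets had changes of -2.15, -1.57 and -1.39, and 2 more had -0.50 and 0.13. The set with the largest difference read 778 at day 2 and 3687 at day 0 in MET KO + EGFRi, against 609 at day 2 and 981 at day 0 in Control. Of 22 ERK response genes, which the signal of both receptors induces, 1 passed 2-fold upward and 1 downward. Dusp6, a phosphatase that ERK signalling induces, had 731 at day 2 and 267 at day 0 in MET KO + EGFRi, against 872 and 769 in Control, and the 2-fold lower gene was Junb.

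Among the 15 largest increases and 15 largest decreases in MET KO + EGFRi, several genes belong to none of the groups above. Cnmd, which encodes chondromodulin, had 31.7, 379, 1485 and 1445 at days 0, 1, 2 and 5 in MET KO + EGFRi, against 368, 1546, 1533 and 1458 in Control. Setd4, a methyltransferase gene, had 1998 at day 2 and 119.6 at day 0 in MET KO + EGFRi, against 1313 and 931 in Control. In MET KO + EGFRi both were below the range of the 4 Control arrays at day 0 and within it at day 2. Nrip2, Rab3a, Ercc1 and Cfap61 were also among the increases, at 3.22, 2.98, 2.90 and 2.70 on the log2 scale. For Cfap61 the mean of its probe sets gave 0.77, for Ercc1 it gave 0.67 and for Rab3a 1.38. Among the decreases, B3galt1, a galactosyltransferase, had 176 at day 2 and 1981 at day 0 in MET KO + EGFRi, against 237 and 134 in Control. Ppp1r3c, which targets a phosphatase to glycogen, had 331 and 2805 in MET KO + EGFRi, against 350.4 and 1079 in Control, and Tifa, an adaptor of NF-kB signalling, had 1091 and 6667, against 854 and 756 in Control. Acpp, Cyp26b1, Cd33 and Nos1ap had signals of 49.9 to 72.9 at day 2 in MET KO + EGFRi, near the pseudocount, so that their folds are poorly measured. Nat8f4 and Tacc2 were 5.46- and 5.41-fold lower at day 2 in MET KO + EGFRi, and a second measured probe set of Nat8f4 had a log2 change of -0.955.

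The position of the 2 MET KO + EGFRi arrays against Control shows on which day signals stood outside the Control range. Of the 258 genes at least 2-fold higher at day 2, 193 were below the range of the 4 Control arrays at day 0 and 86 above it at day 2, while 139 were below it at day 0 and within it at day 2. Of the 253 genes at least 2-fold lower, 166 were above the Control range at day 0 and 139 below it at day 2, while 71 were above it at day 0 and within it at day 2. These genes were chosen on the same 2 arrays, so the counts are a description. Over all 12112 genes, 2590 were above and 2716 below the Control range at day 0, and 2323 above and 2256 below it at day 2. Of these 12112 genes, 1444 were below it at day 0 and within it at day 2 (11.9%), and 1247 were above it at day 0 and within it at day 2 (10.3%).

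The Control arm, which shares no array with MET KO + EGFRi, had 313 genes at least 2-fold higher at day 2 (2.58%) and 331 at least 2-fold lower (2.73%). Of these, 61 were at least 2-fold higher in both arms, which is 23.6% of the MET KO + EGFRi genes and 19.5% of the Control genes, and 28 were at least 2-fold lower in both, which is 11.1% and 8.46%. Of the 258 higher genes of MET KO + EGFRi, 151 were also higher in Control to some degree and 20 were at least 2-fold lower. Of the 253 lower genes, 148 were also lower in Control and 14 at least 2-fold higher. Among all 12112 genes, 5520 were higher and 6588 lower in Control. Across the 12112 genes, which are not independent replicates, the changes of the 2 arms had a Pearson correlation of 0.11. A limma fit of the interaction of arm with TCPOBOP over days 1, 2 and 5 against day 0, with 2 residual degrees of freedom, called 0 of 12112 genes at an adjusted p under 0.05, and 251 genes with a more positive and 292 with a more negative response in MET KO + EGFRi had an unadjusted p under 0.05. A limma fit of the difference between arms in the change from day 0 to day 2 alone, added after the data were seen, left 1 residual degree of freedom, the disagreement of the arms between days 1 and 5. It called 0 of 12112 genes at an adjusted p under 0.05, and 423 genes with a more positive and 394 with a more negative change in MET KO + EGFRi had an unadjusted p under 0.05. Among 12112 tests, unadjusted p under 0.05 also arise where no gene differs, so these counts are not calls. Fits with so few degrees of freedom can miss large differences. The differences between arms given above for interferon, cholesterol, mitotic and macrophage genes are therefore values of single arrays, and none of the genes was called in either fit.

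**Figure D4:**
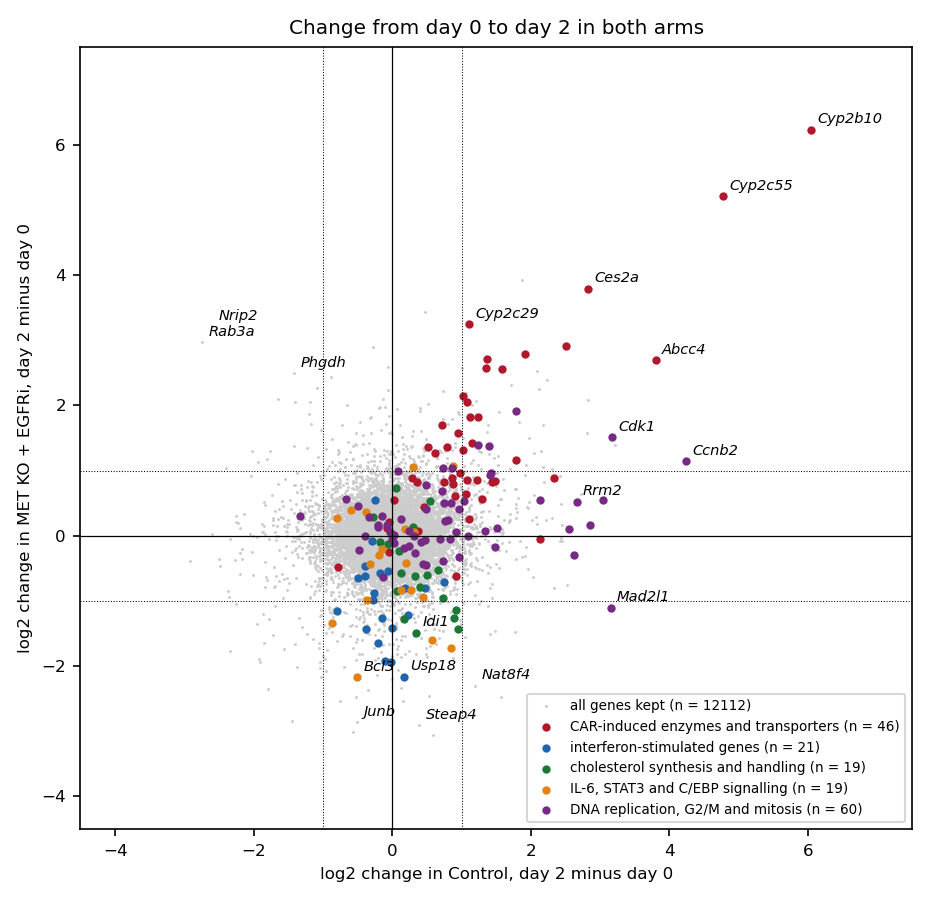
Each point is a gene, placed by its log2 change from day 0 to day 2 in Control (x axis) and in MET KO + EGFRi (y axis), with gene lists in colour and dotted lines at 2-fold. The CAR-induced genes lead the upper right corner, Ccnb2 and Mad2l1 lie far to the right (4.23 and 3.15 in Control) at 1.14 and -1.10 in MET KO + EGFRi, and 20 of 21 interferon-stimulated and 15 of 19 cholesterol genes lie below 0 on the y axis.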

How the data were processed

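The deposited values are MAS5 intensity values, per the submitters' processing notes, with 1 linear signal per probe set and array and a mean of 500 in each array after trimming 2 percent at each end. The version and detection calls of MAS5 are not given in the sources used here. Per the labels, each array used 6 µg of RNA from pooled livers. Here, 64 control probe sets were dropped, and 34945 of the 45037 others mapped to a single gene of the platform annotation. Signals were analysed as log2(signal + 71), 71 being the lower quartile of the deposited values. Of a gene's probe sets the brightest on average stood for it, and genes under a mean log2 value of 8.24, the median of probe sets, were left out. Differences of 1 array against 1 were counted at 2-fold. limma (3.58.1, R 4.3.3) with a variance trend fitted all 8 arrays, with Benjamini-Hochberg adjustment, after a trial on simulated data. Its p-values measure how far the arms disagree in their changes between days, not the spread between animals.

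The members and the 40 gene lists were chosen with earlier results of these data known. Named genes were the 15 largest increases and 15 largest decreases reaching the upper quartile of an array, up to 6 largest changes of each list, called genes, and fixed genes such as Met and Cdk1. Alternatives changed the pseudocount, filter, probe set rule, scaling, fold and arrays. Some listed genes are not analysed here.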

Additional observations from a re-analysis of the deposited data

Results flagged for a closer look

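In these genes and lists the 2 arms ran in opposite directions between day 0 and day 2, each on 1 array a day. In the limma fit of the difference between arms in this change, with 1 residual degree of freedom, none of the 10 genes was called, with adjusted p of 0.589 to 0.729; for the list medians the difference was not tested. Nrip2 had a log2 change of 3.22 in MET KO + EGFRi and -2.60 in Control, Rab3a of 2.98 and -2.74, Cfap61 of 2.70 and -1.24, Phgdh of 2.49 and -1.42, and Acot3 of 1.63 and -1.03. Of these, Rab3a, Phgdh and Acot3 were read on probe sets that can bind related RNAs, and a second measured probe set of Phgdh had a change of -0.25 in MET KO + EGFRi. The mean of the probe sets of Rab3a gave 1.38 in MET KO + EGFRi. In Control, Nrip2 had 661.5, 1029, 50 and 1657 at days 0, 1, 2 and 5, with day 2 below the pseudocount of 71. Rab3a had 10518, 12167, 1514 and 5834 in Control on the same days, also lowest on day 2. Acpp had a log2 change of -2.78 in MET KO + EGFRi and 1.07 in Control, Cd33 of -2.47 and 1.57, Nat8f4 of -2.30 and 1.20, Mup10 of -1.56 and 1.05, and Mad2l1 of -1.10 and 3.15. The day 2 signals of Acpp, Cd33 and Mad2l1 in MET KO + EGFRi were below the pseudocount, at 56.7, 49.9 and 56.4. The lists with medians of opposite sign had -0.60 in MET KO + EGFRi and 0.33 in Control for cholesterol synthesis and handling, 0.59 and -0.35 for Kupffer cell and macrophage markers, and 0.38 and -0.24 for lymphocyte markers. The lymphocyte medians rested on 7 of 17 listed markers, none of them 2-fold different in either arm. With no filter on low values the lymphocyte median in MET KO + EGFRi was 0.17.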

How the results depend on the processing

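Genes at least 2-fold higher at day 2 in MET KO + EGFRi numbered 258, but 141 with the median signal as pseudocount, 516 with no filter on low values, 148 with the filter at the upper quartile, 162 with the mean of a gene's probe sets and 74 at 3-fold. Genes at least 2-fold lower numbered 253, but 147, 520, 115 and 78 under the same settings other than the mean of probe sets, and 173 with the mean of probe sets. In the fit averaged over arms, the 7 called genes became 4 with no pseudocount, 2 with no filter and 16 with the filter at the upper quartile, and 2 to 7 when each array was left out in turn. The interaction gave 0 calls in each setting in which it could be fitted, and could not be fitted without either day 0 array. The fit of the difference between arms in the day 2 change, added after seeing the data, gave 0 calls in each processing setting and has no residual degree of freedom once an array is left out. Leaving out an array is not possible for a difference between 2 single arrays. Under quantile normalization the medians of acute phase proteins and hepatocyte markers became -0.35 and -0.062. With the filter at the upper quartile those of pericentral genes and cholangiocyte markers became -0.15 and 0.24. The medians of G1/S regulators, CDK inhibitors and p53 targets, growth hormone axis genes, proteasome subunits, monocyte and neutrophil markers, and pancreas, adipose and muscle markers, all near 0, also changed sign under at least 1 setting. The other list medians kept their sign under the settings tried. Of 103 named genes that were 2-fold different, 86 stayed so with the median as pseudocount and 81 of 95 with the mean of probe sets, with no change of sign. The cause of these shifts was not tested. No paired analysis was possible because each group had 1 array and replicate number 1. The number of arrays limits the precision, and signals near 71 carry little information on fold.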

Other observations

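Other gene groups gave smaller values. Of 17 core clock genes, Dbp, an output of the clock in liver, was at least 2-fold different, with 5211 at day 2 and 1278 at day 0 in MET KO + EGFRi, against 5226 and 5908 in Control; the hour at which livers were taken is not given in the labels. Of 27 ribosome biogenesis and polyamine genes, 17 were lower and 1, Rrs1, was 2-fold lower in MET KO + EGFRi, with medians of -0.16 in MET KO + EGFRi and 0.086 in Control. The unfolded protein response and heat shock genes had medians of -0.12 in MET KO + EGFRi and 0.30 in Control. Within them Xbp1, a transcription factor of secretory capacity, had 9954 at day 2 and 20509 at day 0 in MET KO + EGFRi, against 11412 and 7086 in Control. Proteasome subunits had medians of 0.047 in MET KO + EGFRi and 0.53 in Control, with 0 of 28 subunits 2-fold different in MET KO + EGFRi and 2 of 28 2-fold higher in Control. Of 16 NRF2 targets, 4 were at least 2-fold higher in MET KO + EGFRi, among them Gclc, which makes the precursor of glutathione, and Osgin1, at 2.29- and 2.39-fold. In Control 4 of the 16 were at least 2-fold higher as well, and the medians were 0.18 in MET KO + EGFRi and 0.52 in Control.

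Of 16 periportal genes, 12 were higher and none 2-fold different at day 2 in MET KO + EGFRi, with medians of 0.26 in MET KO + EGFRi and -0.17 in Control. The periportal P450 Cyp2f2, one of the 4 lower, had 3227 at day 2 and 5913 at day 0 in MET KO + EGFRi, against 20696 and 23226 in Control. Of 22 genes of the growth hormone axis and of sex bias in liver, 13 were higher, 2 at least 2-fold, and 9 lower, 3 at least 2-fold, in MET KO + EGFRi, with medians of 0.067 in MET KO + EGFRi and -0.11 in Control. In Control 3 passed 2-fold upward and 4 downward. Among male-biased liver genes, Mup3 was 3.03-fold and Mup10 3.26-fold lower at day 2 in MET KO + EGFRi; the major urinary protein genes are near-identical copies, so the probe sets may read several of them. Ajuba, an adaptor of the Hippo pathway, had 614 at day 2 and 107 at day 0 in MET KO + EGFRi, against 429.5 and 406 in Control.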
